A study of Apis mellifera ligustica with 11 samples.

Results

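Honeybee brains sampled 30 days after fluvalinate exposure began were compared with brains sampled at 10 days. The 5 libraries of this comparison, 3 from day 30 and 2 from day 10, are the libraries that the labels place at these times, out of 11 libraries in the series with a label. The others are 3 from day 20 and 3 taken 1 day before exposure, and they contribute to the estimate of spread. Of 9974 genes in the table, 7830 averaged 1 FPKM or more across the 11 libraries and were tested. All bees were Apis mellifera ligustica, the Italian honeybee, and all libraries were made from brain tissue after the glands that secrete royal jelly, and pigments, had been dissected away. Both times belong to bees given fluvalinate at the usual hive dosage, with mite treatment repeated every 7 days. No unexposed bees of day 30 or day 10 were analysed here, so duration of exposure, age of the bees and season cannot be told apart. The labels do not say whether replicates came from separate colonies, so each p-value is set against the spread of these libraries alone, which may be technical.

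Fluvalinate is a pyrethroid used in hives against mites, and pyrethroids hold voltage-gated sodium channels of nerve cells open. In worker bees the hypopharyngeal gland, which lies in the head beside the brain, makes the major royal jelly proteins; it is known to be large in nurse bees and small in foragers. Nurse bees are also known for high vitellogenin, a yolk protein made in the fat body, and foragers for low vitellogenin.

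FPKM is a level per transcript length and sequencing depth, so a few very abundant transcripts lower the FPKM of all others. The median gene was 0.215 higher at day 30 on the log2(FPKM + 1) scale, and 75.1% of genes had a difference above 0. With median-of-ratios scaling, which divides each library by its typical gene's level, 49.5% did. Log2 differences below are therefore day 30 minus day 10 relative to the median gene, while adjusted p-values, from limma over all 7830 genes, test the values as deposited unless scaling is named. As deposited 844 genes passed an adjusted p of 0.05, which is 10.8% of those tested; 737 (9.41%) were higher and 107 (1.37%) lower at day 30, and 128 differed by at least 2-fold. With median-of-ratios scaling 60 passed (0.766%), 15 of them higher (0.192%) and 45 lower (0.575%), so that 25% of calls were higher against 87.3% as deposited. All 15 higher calls and 44 of the 45 lower calls were also made as deposited. Without day 10 replicate 2, or without day 30 replicate 3, limma called 0 genes, although 832 and 1825 genes had an unadjusted p under 0.05; without day 30 replicate 1 it called 15. Without day 10 replicate 3 or day 30 replicate 2 it called 1247 and 1240. All 844 genes kept their sign in each of these fits, which was fixed in advance because their day 30 and day 10 libraries do not overlap. None was called in more than 3 of the 5, so no gene below has a call that holds whichever library is left out.

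**Figure D1:**
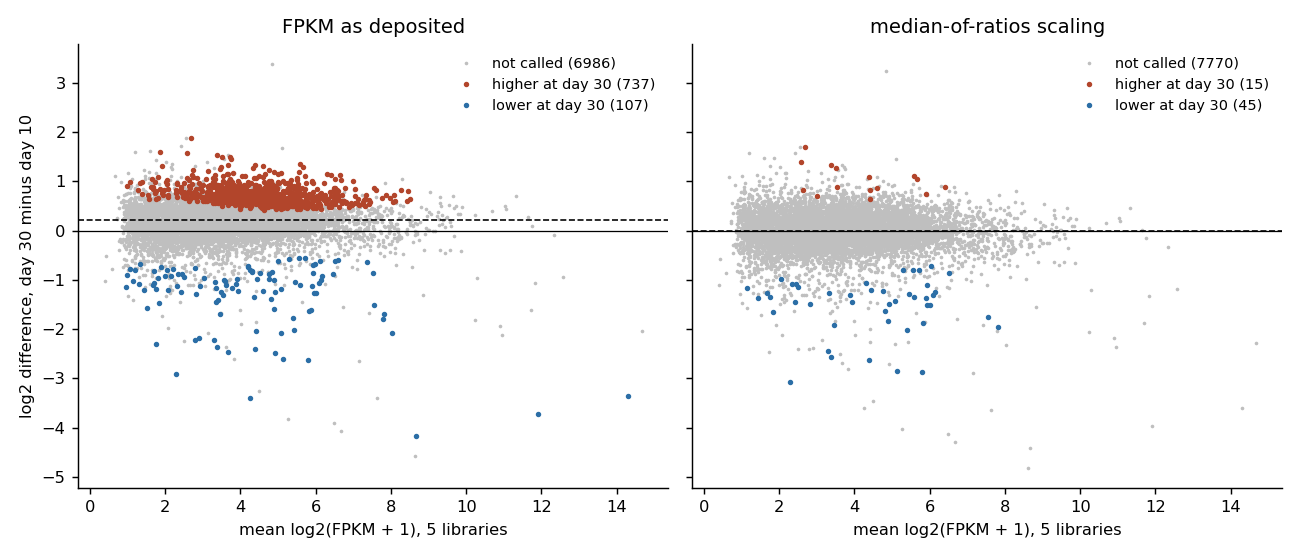
Each point is a gene, placed by its mean log2(FPKM + 1) over the 5 libraries and by its log2 difference, day 30 minus day 10, with values as deposited in the left panel and after median-of-ratios scaling in the right panel. The dashed line is the median gene, which lies at 0.215 as deposited and near 0 after scaling, with 60 calls after scaling, against 844 as deposited.

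The transcripts that differed most in amount were those of royal jelly secretion, and they were lower at day 30. The summed FPKM of Mrjp1 to Mrjp7 was 4234, 36823 and 9049 in day 30 replicates 1, 2 and 3, against 126260 and 94231 in day 10 replicates 2 and 3. These sums made up 1.51%, 10.4% and 3.16% of all FPKM at day 30, against 27% and 23.9% at day 10. Day 30 replicate 2 was the highest of its group, and the groups did not overlap. The geometric mean was 9.73-fold lower at day 30 (log2 difference -3.28 as deposited; exact permutation test over 10 arrangements, two-sided p = 0.2 as 2 times the smaller tail, which is the smallest p this form of the test allows). The log2 difference was -2.58 without day 30 replicate 1 and -4.14 without day 30 replicate 2. The labels state that these glands were removed; transcripts of gland left on a brain and of the brain itself cannot be told apart in these libraries.

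Of the 11 major royal jelly protein genes listed, 9 were tested. Of these 4 were lower and none higher at day 30, against 1.37% and 9.41% of all genes. The median relative log2 difference was -3.56, where the median of all genes is 0 by construction. In 6 of the 9 every day 30 library lay below both day 10 libraries, as did 5.68% of all genes tested. Mrjp1, the main protein of royal jelly, had 3205, 25775 and 6269.8 FPKM at day 30, against 96898 and 68894 FPKM at day 10. No day 30 library reached the day 10 range, and replicate 2 was far above the other day 30 libraries (relative log2 difference -3.56, SE 0.87, adjusted p = 0.0377). Mrjp2 had 433, 4707 and 1248 FPKM at day 30, against 19997 and 16128 FPKM at day 10, again without overlap (-3.93, SE 0.84, adjusted p = 0.0305). Mrjp7 had the largest difference of any named gene that passed, at 26.3, 533 and 139.6 FPKM on day 30, against 2108 and 2471 FPKM on day 10 (-4.38, SE 0.97, adjusted p = 0.0313). Mrjp9, a low member of the family that is also known from venom, had 3.64, 7.62 and 2.81 FPKM at day 30, against 27.3 and 21.1 FPKM at day 10. It was the only member still called after median-of-ratios scaling (adjusted p = 0.0154 as deposited and 0.0134 scaled).

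The other members varied more between libraries. Mrjp3 had 10.4, 616 and 196 FPKM at day 30, against 1964 and 3558 FPKM at day 10, and Mrjp4 had 26.7, 299 and 55.7 FPKM, against 1048 and 639 FPKM. Their groups did not overlap, yet neither passed (adjusted p = 0.0624 and 0.0906), and within day 30 both genes were highest in replicate 2 and lowest in replicate 1. Mrjp5, Mrjp6 and Mrjp8 overlapped between the groups. Mrjp6 had 256, 2477 and 552 FPKM at day 30, against 1176 and 379 FPKM at day 10, and Mrjp8, the lowest of these 3, had 6.11, 7.19 and 6.32 FPKM, against 7.86 and 6.61 FPKM. Across the family relative log2 differences ran between -4.78 (Mrjp3) and -0.14 (Mrjp6).

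Other products of the same gland were not called. Apisimin (LOC406093), a small protein of royal jelly, had 8769, 39590.0 and 9223 FPKM at day 30, against 78596 and 46747 FPKM at day 10, without overlap (adjusted p = 0.101). Hbg3, the alpha-glucosidase with which bees split sucrose, had 2175, 11306 and 4254 FPKM at day 30, against 12134 and 6755 FPKM at day 10. Glucose oxidase (LOC406081), which makes the hydrogen peroxide of honey, had 1089, 5830.3 and 1537 FPKM, against 9608 and 4497 FPKM. In Hbg3, glucose oxidase and alpha-amylase day 30 replicate 2 lay inside or above the day 10 range. The list of 5 had 0 calls by limma in either direction, with a median relative log2 difference of -1.18.

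**Figure D2:**
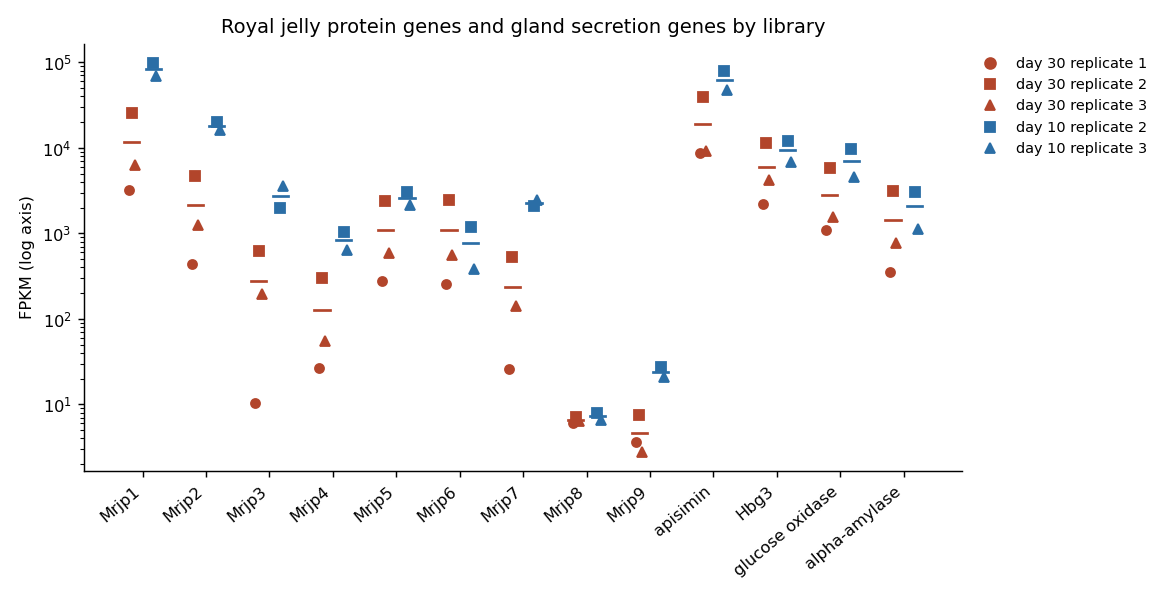
FPKM on a log axis of 9 royal jelly protein genes and 4 other secreted products, with a symbol per library and a bar at each group's mean. Mrjp1, Mrjp2 and Mrjp7 of day 30 lie below day 10 in every library, whereas Mrjp5, Mrjp6 and Mrjp8 overlap, and replicate 2 is the highest day 30 library in every gene shown.

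Several genes outside that family that passed were also highest within day 30 in replicate 2. Venom acid phosphatase Acph-1 (LOC725215) had 2.12, 19.6 and 5.41 FPKM at day 30, against 83.9 and 71.2 FPKM at day 10 (-3.61, SE 0.72, adjusted p = 0.0279). Of 10 glucose dehydrogenase genes tested 4 were lower and none higher, against 1.37% and 9.41% of all genes. Their median was -0.66, and 1 was called after scaling. LOC551044 of this list had 19.6, 65.1 and 12.9 FPKM at day 30, against 183 and 148 FPKM at day 10 (-2.85, SE 0.52, adjusted p = 0.0254), and it was the 1 called after scaling (0.0495). LOC409708, similar to the lysosomal enzyme glucosylceramidase, had 74.4, 483 and 86.3 FPKM at day 30, against 674 and 572 FPKM at day 10 (-2.30, SE 0.61, adjusted p = 0.0477). Its day 30 replicate 2 lay close below day 10, and the other day 30 libraries far below it.

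Neuronal genes were the group most often higher at day 30. Of 8 neuron markers tested 7 were called higher, against 9.41% of all genes, with a median relative log2 difference of 0.82. In 7 of the 8 every day 30 library exceeded both day 10 libraries, against 37.6% of all genes. All 737 genes called higher are without overlap, so for the 7 called this adds nothing to the calls. After median-of-ratios scaling 3 of the 8 were called higher. Their summed FPKM was 696, 557 and 694 at day 30, against 298 and 410 at day 10. After division by the size factors of the scaling it was 583, 567 and 656, against 347 and 430.0, so the groups stayed apart. The nervous tissue named by the labels was thus present at both times. In bulk tissue, fewer cells of a type and less RNA per cell cannot be told apart, and the sums of gland transcripts moved the other way in the same 5 libraries; the part of the gland transcripts in the neuronal difference was examined only by adding the gland level to the fit, after which 0 genes were called higher and 7 lower (limma; 516 genes had an unadjusted p under 0.05 in either direction). The log2 differences of all 737 genes called higher stayed above 0 in that fit, by varying amounts. brp had 1.04, against 1.32 as deposited, Futsch 1.07, against 1.29, SNAP-25 0.90, against 1.13, and ELAV-like protein 2 0.86, against 1.34. Para fell to 0.67, against 1.11, and Nckx30C (LOC412777) to 0.52, against 1.32. The gland level, the mean log2(FPKM + 1) of Mrjp1 to Mrjp7, was 7.09, 10.8 and 8.83 at day 30, against 12.1 and 11.7 at day 10. It did not overlap, so this fit cannot tell gland level and time apart.

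brp, bruchpilot, the scaffold of presynaptic active zones, had 30.6, 24.2 and 33.8 FPKM at day 30, against 8.81 and 13.9 FPKM at day 10. The lowest day 30 library was well above the highest day 10 library, and the relative log2 difference was 1.11 (SE 0.19, adjusted p = 0.0154 as deposited and 0.0171 after scaling). ELAV-like protein 2 (LOC410689), of the RNA-binding family that marks neurons, had 83.6, 55.5 and 71.2 FPKM at day 30, against 19.7 and 35.9 FPKM at day 10 (1.13, SE 0.22, adjusted p = 0.0244 and 0.0297). SNAP-25 (LOC411114), which helps to fuse synaptic vesicles with the membrane, had 130.1, 99.6 and 119 FPKM, against 42.2 and 64.8 FPKM (0.91, SE 0.17, adjusted p = 0.0171 and 0.0134). In all 3 genes day 10 replicate 2 was the lowest library of the 5. The exception among the markers was synaptobrevin-1 (LOC725310), with 28.7, 32.6 and 28.2 FPKM at day 30, against 39.6 and 33.8 FPKM at day 10; it was not called (-0.50, SE 0.13, adjusted p = 0.17).

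Voltage-gated channels carry the electrical signals of nerve cells. Of 23 such genes tested 17 were higher and none lower, against 9.41% and 1.37% of all genes, with a median of 0.57. Para encodes the voltage-gated sodium channel that pyrethroids bind, and had 78.3, 57.1 and 79.3 FPKM at day 30, against 25.4 and 40.7 FPKM at day 10. Every day 30 library was above day 10 (0.90, SE 0.20, adjusted p = 0.0254 as deposited, 0.0527 after scaling). Protein tipE (LOC102654970), known in Drosophila as an auxiliary subunit of that channel, had 36.7, 28.5 and 36.3 FPKM, against 9.19 and 18.1 FPKM (1.09, SE 0.24, adjusted p = 0.0254). The small-conductance calcium-activated potassium channel LOC410317 had 21.5, 14.6 and 19.2 FPKM, against 5.48 and 10.2 FPKM (0.96, SE 0.23, adjusted p = 0.0254). Cac, cacophony, the calcium channel of presynaptic terminals, had 47.5, 37.2 and 57.7 FPKM, against 18.9 and 29.2 FPKM (0.75, SE 0.21, adjusted p = 0.03). LOC411653, annotated as sodium channel 60E, had 54.0, 37.7 and 56.2 FPKM, against 21.2 and 34.1 FPKM (0.61, adjusted p = 0.0424). Which ion it carries was not tested. With median-of-ratios scaling limma called 0 of the 23, with a median log2 difference of 0.55.

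Receptors for neurotransmitters were higher in 19 of 46 genes tested and lower in none, against 9.41% and 1.37% of all genes. Their median was 0.41. LOC411420, annotated as adenosine receptor A2b, had the largest increase among named genes, with 11.9, 10.3 and 7.73 FPKM at day 30, against 0.84 and 3.79 FPKM at day 10 (1.65, SE 0.34, adjusted p = 0.0254 as deposited and 0.0495 after scaling). It was the only receptor of this list called after scaling. Oa1, an octopamine receptor, had 9.76, 7.33 and 7.31 FPKM at day 30, against 2.85 and 3.69 FPKM at day 10 (0.88, SE 0.24, adjusted p = 0.03). nAChRa3, a subunit of the nicotinic receptors for acetylcholine, had 22.3, 22.5 and 23.2 FPKM, against 11.8 and 14.6 FPKM (0.53, SE 0.15, adjusted p = 0.0254). The day 30 libraries of this gene lay within 1 FPKM of each other. Some receptors pointed the other way without a call, such as nAChRa9, with 0.67, 2.89 and 3.07 FPKM at day 30, against 2.24 and 4.57 FPKM at day 10.

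Of 34 genes of synaptic vesicles and active zones 17 were higher and 2 lower, against 9.41% and 1.37% of all genes. Their median was 0.36, and after scaling 2 were higher and 1 lower. Synapsin (LOC551737), which tethers vesicles, had 161, 111 and 143 FPKM at day 30, against 44.1 and 87.7 FPKM at day 10 (0.91, adjusted p = 0.0298). Vesicle-associated membrane protein 2 (LOC408465), a vesicle partner of SNAP-25, had 267, 212 and 238 FPKM at day 30, against 111 and 154 FPKM at day 10 (0.64, SE 0.16, adjusted p = 0.0254). The vesicular transporters split: the one annotated for acetylcholine (LOC725064) had 57.5, 48.7 and 58.9 FPKM at day 30, against 26.3 and 34.7 FPKM at day 10 (0.62, adjusted p = 0.0313). Vesicular glutamate transporter 1 (LOC410752) was higher too (0.81, adjusted p = 0.0254), whereas vesicular glutamate transporter 2.2 (LOC412220) was lower, with 4.12, 5.76 and 4.02 FPKM, against 7.86 and 9.18 FPKM (-0.98, adjusted p = 0.0436). LOC411186, annotated as synaptic vesicle glycoprotein 2C, fell to 0.24, 2.31 and 1.5 FPKM at day 30, against 13.5 and 17.6 FPKM at day 10 (-3.13, SE 0.41, adjusted p = 0.0154 as deposited and 0.0124 after scaling). Its library order was that of the gland transcripts within day 30, and another gene with the same annotation (LOC413739) was not called, with 14.8, 30.4 and 17.3 FPKM, against 33.6 and 25.3 FPKM.

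The remaining neuronal lists held fewer calls. Their counts stand beside 9.41% higher and 1.37% lower of all genes. Of 33 genes of neuronal adhesion and axon guidance 11 were higher and none lower (median 0.37), and after scaling limma called 0 of them. Teneurin-a (LOC411155), a synaptic partner-matching protein in Drosophila, had 80.3, 72.2 and 86.1 FPKM at day 30, against 33.4 and 48.3 FPKM at day 10 (0.75, SE 0.18, adjusted p = 0.0254). Futsch (LOC725131), a microtubule-associated protein of axons and nerve terminals that belongs to none of these lists, had 77.0, 63.7 and 75.7 FPKM, against 22.99 and 36.1 FPKM (1.07, SE 0.16, adjusted p = 0.0114). Its adjusted p was among the smallest of the named genes and 0.0124 after scaling. Of 21 kinases and cAMP signalling genes known from learning 7 were higher and 1 lower (median 0.10), and after scaling 0 were higher and 1 lower. Camkii had 97.7, 92.2 and 121 FPKM at day 30, against 54.2 and 72.5 FPKM at day 10 (0.49, SE 0.16, adjusted p = 0.0312). The lower gene, cGMP-dependent protein kinase 1 (LOC100576901), had 1.08, 1.57 and 1.5 FPKM, against 4.06 and 4.13 FPKM (-1.32, SE 0.22, adjusted p = 0.0254 as deposited and 0.0171 after scaling).

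Of 18 neuropeptide precursors 4 were higher and none lower, against 9.41% and 1.37% of all genes. Their median was 0.32, and 1 was called after scaling. Apime-ASTA, the precursor of allatostatin A, had 27.4, 25.5 and 26.3 FPKM at day 30, against 11.8 and 16.2 FPKM at day 10 (0.67, SE 0.14, adjusted p = 0.0213 as deposited and 0.0406 after scaling). The 3 day 30 libraries differed little, and both day 10 libraries lay well below. Eclosion hormone (LOC726377), named for its role at moulting, had 7.67, 8.31 and 6.60 FPKM, against 2.91 and 3.94 FPKM (0.74, SE 0.19, adjusted p = 0.0254). Leaving out a day 10 library leaves 1 library at that time, so only log2 differences, as deposited, are given for these fits. Without day 10 replicate 2 they were 1.03 for brp, 0.78 for Para and 0.67 for Apime-ASTA. Without day 10 replicate 3 they were 1.62, 1.44 and 1.09.

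**Figure D3:**
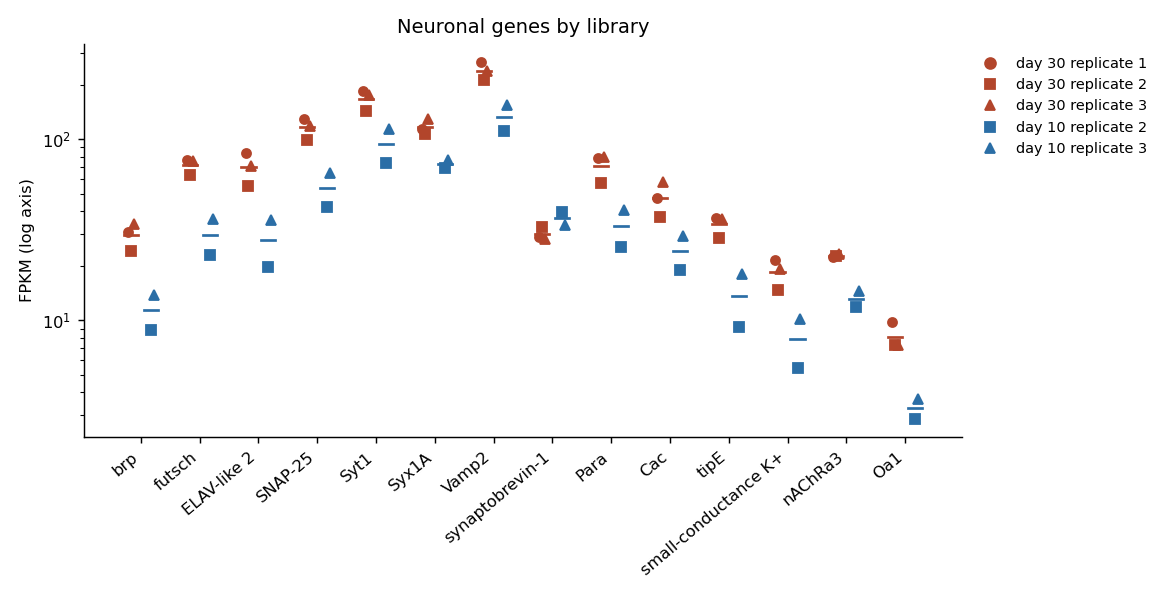
FPKM on a log axis of 14 neuronal genes, with a symbol per library and a bar at each group's mean. Day 30 libraries lie above both day 10 libraries in every gene shown except synaptobrevin-1, and day 10 replicate 2 is below day 10 replicate 3 in all of those.

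Muscle genes had more lower calls in number than any other list, though 4 of 9 royal jelly protein genes and 4 of 10 glucose dehydrogenases were larger shares. Of the 32 muscle genes listed, 22 were tested. Of these 8 were lower and 2 higher, against 1.37% and 9.41% of all genes, with a median relative log2 difference of -0.90. In 13 every day 30 library lay below both day 10 libraries, as did 5.68% of all genes tested. After median-of-ratios scaling 7 were lower and none higher. The summed FPKM of the list was 659.6, 396 and 476 at day 30, against 702 and 935 at day 10, and divided by size factors 552, 403 and 450, against 817 and 982. Myosin regulatory light chain 2 (LOC409881), which tunes contraction, had 66.0, 30.3 and 44.6 FPKM at day 30, against 96.5 and 121 FPKM at day 10 (-1.47, SE 0.30, adjusted p = 0.0313 and, after scaling, 0.0263). Myosin light chain alkali (LOC410058) had 52.9, 24.6 and 31.9 FPKM, against 68.6 and 82.7 FPKM (-1.31, SE 0.26, adjusted p = 0.0313 and 0.0171). Muscle LIM protein Mlp84B (LOC411285), a protein of the sarcomere's Z-disc in Drosophila, had 13.3, 7.78 and 9.55 FPKM, against 21.9 and 22.4 FPKM (-1.29, SE 0.21, adjusted p = 0.0254 and 0.0134). In these 3 genes the highest day 30 library was replicate 1, unlike the gland transcripts, where it was replicate 2.

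Other parts of the contractile apparatus were lower as well. TpnI, troponin I, which blocks contraction without calcium, had 69.0, 35.3 and 42.0 FPKM at day 30, against 73.8 and 98.7 FPKM at day 10 (-1.07, adjusted p = 0.0458 and 0.0306). Tropomyosin-1 (LOC408414), which lies along the actin filament, had 43.7, 24.2 and 30.4 FPKM, against 57.0 and 77.0 FPKM (-1.25, adjusted p = 0.0339 and 0.0171). The muscle myosin heavy chain (LOC409843), a defining marker of the list, was not called, with 13.8, 12.1 and 16.9 FPKM at day 30, against 19.7 and 23.01 FPKM at day 10 (-0.77, adjusted p = 0.128). The 2 higher members, LOC408677 and LOC724192, are both annotated as titin, a name that the files also give to other genes tested here, and neither was called after scaling. Muscle was no target of the dissection, and the part of muscle attached to the brains in these differences was not tested.

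With the gland level of each library added to the fit 7 genes (0.0894% of those tested) were called, all lower at day 30, and 4 of them were on the muscle list. These were Mlp84B (LOC411285; log2 difference -1.66 in that fit, adjusted p = 0.0103), myosin light chain alkali (LOC410058; -1.79, adjusted p = 0.0409), the long form of paramyosin (LOC409787, adjusted p = 0.0103) and a short form (LOC113218867, adjusted p = 0.023). The other 3, singled out after their values were seen, were an actin (LOC551369), LOC726570, annotated as CWF19-like protein 2, and LOC410857. As deposited 5 of the 7 were called lower, and LOC113218867 and LOC726570 were not called. The log2 difference as deposited was -1.07 for Mlp84B and -1.10 for myosin light chain alkali. The gland level did not overlap between the days, so this fit cannot tell gland level and time apart. LOC410857 is annotated as lethal(2)essential for life, of the small heat shock protein family, and had 14.5, 6.65 and 10.3 FPKM at day 30, against 22.0 and 27.5 FPKM at day 10 (-1.43, SE 0.24, adjusted p = 0.0254 as deposited and 0.0134 after scaling).

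Among proteins of the fat body and haemolymph, the insect blood, 2 of 8 genes tested were lower and none higher. The shares of all genes were 1.37% and 9.41%. The median of the list was -0.82, and 1 was called after scaling. Vg, vitellogenin, had 5.44, 19.1 and 8.61 FPKM at day 30, against 47.8 and 65.0 FPKM at day 10. All day 30 libraries were below day 10, and the mean was 11.1 ± 7.17 FPKM (SD, n = 3), against 56.4 ± 12.1 FPKM (SD, n = 2; -2.61, SE 0.35, adjusted p = 0.0157 as deposited and 0.0151 after scaling). Hex70a, the storage protein hexamerin 70a, had 3.05, 7.41 and 0.94 FPKM, against 20.9 and 14.4 FPKM (-2.40, SE 0.50, adjusted p = 0.031, 0.0594 after scaling). Tsf1, the iron carrier transferrin 1 and the most abundant gene of the list, had 1535, 1820.4 and 2268 FPKM at day 30, against 1266 and 1547 FPKM at day 10, with overlap and no call. A4, an apolipophorin-III-like protein, differed most but varied most, with 29.2, 582 and 16.9 FPKM, against 667 and 269.7 FPKM (adjusted p = 0.124). The summed FPKM of the list overlapped between the groups, at 1601 to 2458 for day 30 and 1920.0 to 2031 for day 10.

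Enzymes that break down foreign compounds were mostly not called, and those of the cytochrome P450 family that were called were lower. P450 enzymes add oxygen to insecticides as well as to fatty acids and hormones. Of 30 tested 5 were lower and none higher, against 1.37% and 9.41% of all genes, with a median of -0.35. Of these 5 lower genes 3 were called after scaling. P450 4C1 (LOC413833) had 22.7, 12.2 and 21.0 FPKM at day 30, against 45.8 and 69.1 FPKM at day 10 (-1.81, SE 0.32, adjusted p = 0.0254 and 0.0172). P450 4aa1-like (LOC100577883) had 148, 95.8 and 131 FPKM, against 320.4 and 388 FPKM (-1.73, SE 0.33, adjusted p = 0.029 and 0.0313). P450 6a17 (LOC412209) had 29.2, 35.1 and 33.9 FPKM, against 45.3 and 52.7 FPKM (-0.78, SE 0.13, adjusted p = 0.031 and 0.0313).

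The 2 most abundant P450 genes at day 30 are annotated as 9e2 and were not called. LOC724211 had 669, 629.9 and 823 FPKM at day 30, against 561 and 654 FPKM at day 10 (0.00, adjusted p = 0.555), and LOC408452 had 580.3, 583 and 604 FPKM, against 497 and 437 FPKM (0.12, adjusted p = 0.239). A smaller gene of that annotation, LOC410492, was lower, with 41.4, 58.8 and 48.0 FPKM, against 89.1 and 72.8 FPKM (-0.92, SE 0.16, adjusted p = 0.03). LOC413083, annotated as 6a14, ranged most widely, with 3.57, 463 and 11.98 FPKM at day 30, against 548 and 371 FPKM at day 10. Its day 30 replicate 2 fell among the day 10 libraries, and it was not called (adjusted p = 0.127). Of 38 glutathione transferases, glycosyltransferases and ABC transporters 1 was called, against 10.8% of all genes. This was LOC409897, a probable multidrug resistance-associated protein of the ABC transporters. It had 14.3, 13.1 and 17.7 FPKM at day 30, against 2.84 and 6.88 FPKM at day 10 (1.32, SE 0.28, adjusted p = 0.0254 and 0.0495). Of 11 esterases 2 were higher and 1 lower, against 9.41% and 1.37% of all genes. AChE-2, an acetylcholinesterase, which clears acetylcholine from synapses, had 61.0, 46.2 and 52.8 FPKM, against 18.4 and 35.8 FPKM (0.80, SE 0.23, adjusted p = 0.0301). It was not called after scaling (adjusted p = 0.0815).

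Lipid synthesis gave 3 lower genes of 27 tested and none higher, against 1.37% and 9.41% of all genes. The median of the list was -0.33, and 2 were called after scaling. LOC409638, annotated as an elongase of very long chain fatty acids, had 57.4, 44.5 and 55.1 FPKM at day 30, against 109.8 and 102 FPKM at day 10 (-1.23, SE 0.18, adjusted p = 0.0254 and 0.0124). The fatty acyl-CoA reductase LOC411983, of the enzymes that make fatty alcohols, had 46.4, 61.1 and 44.0 FPKM, against 106.6 and 105 FPKM (-1.28, SE 0.22, adjusted p = 0.026 and 0.0288). Both genes had day 10 libraries close to each other and well above all of day 30.

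Genes of hormone signalling were higher in 9 of 24 and lower in 1, against 9.41% and 1.37% of all genes. Their median was 0.32. The higher ones include genes of the ecdysone cascade, in which the steroid ecdysone acts through a nuclear receptor on a set of early genes. Ecr, the ecdysone receptor, had 24.1, 21.6 and 19.3 FPKM at day 30, against 11.01 and 8.07 FPKM at day 10 (0.90, SE 0.21, adjusted p = 0.0254). E75, an early ecdysone-induced nuclear receptor, had 39.6, 38.3 and 42.0 FPKM, against 22.2 and 25.3 FPKM (0.51, SE 0.12, adjusted p = 0.0254). Br-c, the broad-complex transcription factor, had 21.1, 15.8 and 22.6 FPKM, against 8.57 and 11.9 FPKM (0.68, SE 0.20, adjusted p = 0.0306). None of the 9 was called after scaling. The lower gene, juvenile hormone epoxide hydrolase 1 (LOC406152), an enzyme that inactivates juvenile hormone, had 72.5, 82.0 and 72.2 FPKM, against 118 and 114 FPKM, and was called in both (-0.83, adjusted p = 0.0406 and 0.0495). Kr-h1, a known target of juvenile hormone, had 51.4, 51.5 and 43.7 FPKM, against 40.5 and 39.5 FPKM, and was not called (adjusted p = 0.648).

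Large housekeeping lists had few or no calls, against 10.8% of all genes, and their medians lay at or below the median gene. Limma called 0 of 70 cytosolic ribosomal proteins (median -0.28), 0 of 71 mitochondrial ribosomal proteins (-0.21), 0 of 39 proteasome subunits (-0.19) and 0 of 52 nuclear genes of oxidative phosphorylation (-0.05). In the cytosolic ribosomal list 69 of the 70 lay below the median gene. In 4 of the 70 all day 30 libraries lay below day 10, near the share of all genes tested (5.68%). In another 4 all lay above day 10, against 37.6% of all genes tested. Of 36 genes of folding and secretion in the endoplasmic reticulum 2 were lower, against 1.37% of all genes. Both are subunits of the translocon-associated protein complex. Its delta subunit (LOC552227) had 39.4, 39.4 and 38.1 FPKM at day 30, against 59.0 and 57.1 FPKM at day 10 (-0.78, SE 0.13, adjusted p = 0.0313 and 0.0134). The 9 transcripts of the mitochondrial genome that were tested, a sign of RNA handling as well as of mitochondria, all lay below the median gene (median -0.70) with 0 calls; their list summed to 6209, 6228 and 6856 FPKM at day 30, against 8209 and 6368 FPKM at day 10. With their level added to the fit 32 genes were called, 20 higher and 12 lower, while the log2 difference of brp was 1.16, against 1.32 as deposited, that of Vg -2.34, against -2.40, and that of Mrjp7 -3.77, against -4.17.

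Heat shock and immune genes held few calls, against 10.8% of all genes tested. Hsp90 had 852, 734 and 1486 FPKM at day 30, against 311 and 1155 FPKM at day 10, so that replicate 3 was the highest of both days, and it was not called (0.49, adjusted p = 0.331). Of 20 heat shock genes only LOC410857, described above, was called, and of 24 immune genes 1 was called, toll-like receptor 6 (LOC410229), with 16.2, 14.5 and 17.9 FPKM at day 30, against 9.18 and 11.3 FPKM at day 10 (0.40, SE 0.18, adjusted p = 0.0465). Of 20 antioxidant enzymes 0 were called by limma, including Cat, catalase, at 28.7, 41.5 and 35.1 FPKM, against 54.5 and 45.8 FPKM (-0.73, adjusted p = 0.0992).

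Markers of other head tissues were measured beside these groups, where 9.41% of all genes were called higher and 1.37% lower. Of 11 photoreceptor genes limma called 0, yet their summed FPKM was 1324, 1345 and 1389 at day 30, against 831 and 748 at day 10; Lop1, the long wavelength opsin, had 547, 742 and 663 FPKM, against 435 and 327 FPKM (0.56, SE 0.43, adjusted p = 0.257). Of 9 glia genes 2 were higher, and both carry glutamate into cells: Eaat-2 had 36.8, 43.2 and 32.8 FPKM at day 30, against 15.2 and 15.5 FPKM at day 10 (1.02, SE 0.21, adjusted p = 0.0254), and excitatory amino acid transporter 1 (LOC409919) had 87.4, 63.5 and 75.8 FPKM, against 39.3 and 54.2 FPKM (0.47, SE 0.19, adjusted p = 0.0436). GlnS, glutamine synthetase, the most abundant glia gene, overlapped at 2903, 1962 and 2424 FPKM, against 1559.6 and 1997 FPKM. Of 5 haemocyte genes 0 were called, with sums of 95.1, 93.2 and 97.5 FPKM at day 30, against 75.2 and 86.3 FPKM at day 10. Divided by size factors these sums overlapped, at 79.6, 95.0 and 92.2, against 87.5 and 90.6, and the list's median relative log2 difference was -0.27. Every gene of the neuron, photoreceptor, glia and haemocyte lists was above 0 in all 5 libraries, whereas 2 to 6 of the 32 muscle genes were listed at 0 in each. Of the 4 clock genes tested, among them Per with 8.07, 9.40 and 7.93 FPKM, against 6.24 and 7.30 FPKM, limma called 0. Of 24 genes of smell and taste 1 was higher and 2 lower; Obp14, an odorant-binding protein, had 1.92, 5.34 and 1.88 FPKM, against 15.2 and 17.7 FPKM (-2.43, SE 0.57, adjusted p = 0.0377). Among 27 cuticle genes 2 were higher, near the share of all genes (9.41%). None of the called glia, smell and taste, esterase and cuticle genes was called after scaling.

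**Figure D4:**
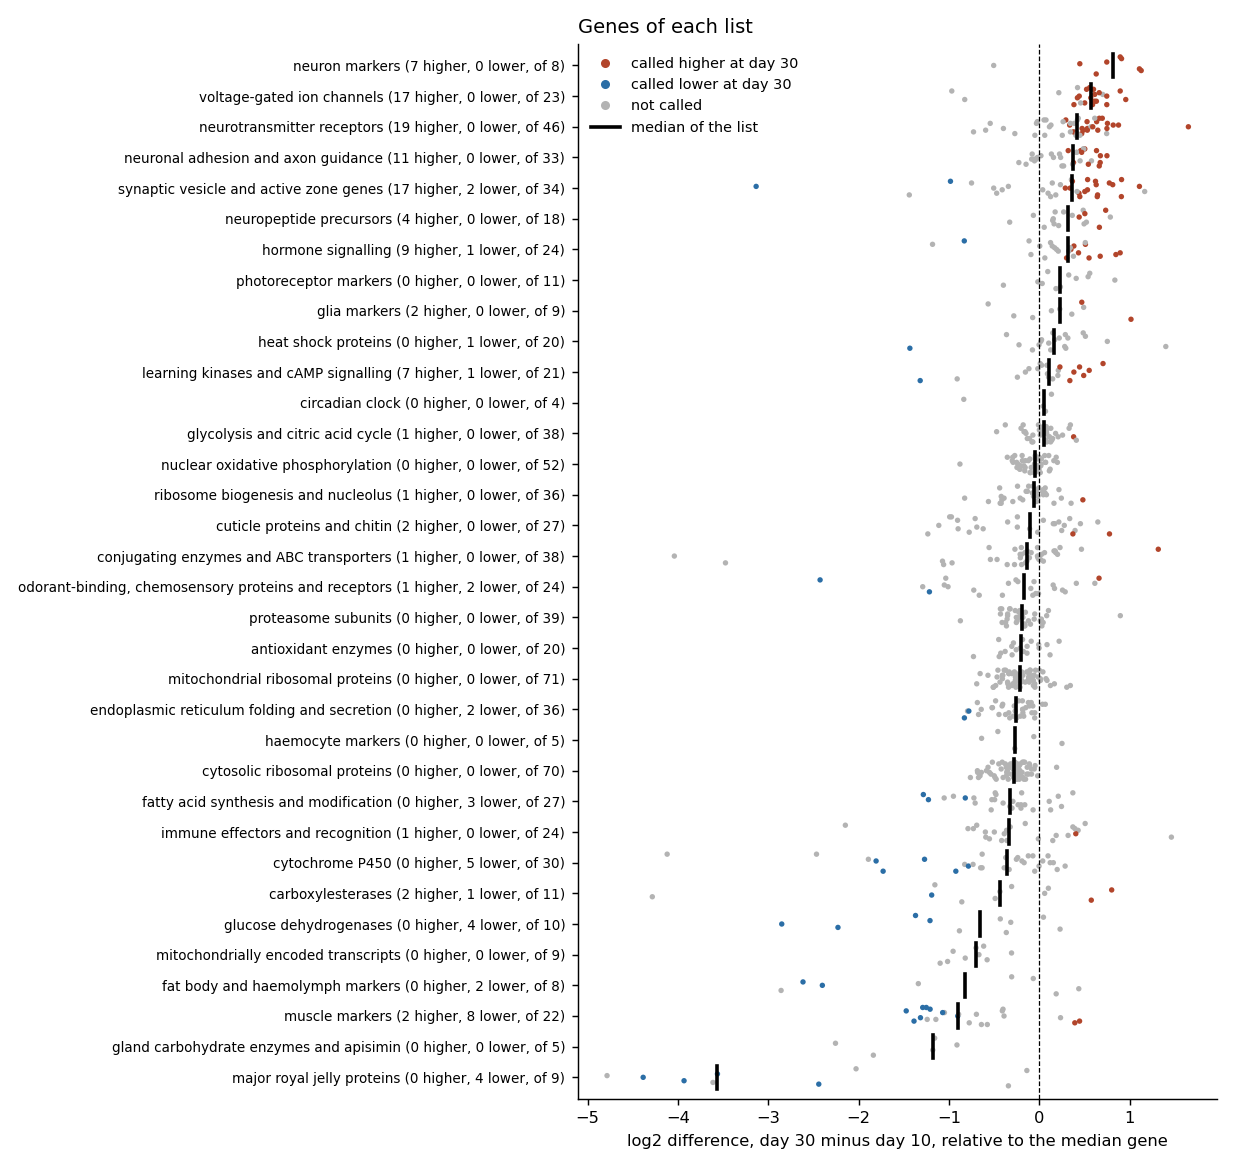
Each row is a gene list and each point a tested member, placed by its log2 difference, day 30 minus day 10, relative to the median gene at 0, with the list's median as a black bar and colours for calls as deposited. Neuronal lists lie at the top with medians between 0.32 and 0.82, apart from learning kinases at 0.10, and muscle markers (-0.90) and royal jelly proteins (-3.56) lie near the bottom.

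The genes with the largest called differences also included some outside these lists. LOC413984, annotated as serine-rich adhesin for platelets, had 11.8, 7.01 and 6.96 FPKM at day 30, against 1.59 and 2.81 FPKM at day 10 (1.36, SE 0.27, adjusted p = 0.0254 as deposited and 0.0172 after scaling). LOC412777, the sodium/potassium/calcium exchanger Nckx30C, which moves calcium out of cells, had 24.0, 12.7 and 16.9 FPKM, against 4.23 and 9.24 FPKM (1.11, SE 0.32, adjusted p = 0.0332). Both were higher in every day 30 library. Among lower genes, venom serine protease 34 (LOC409143) had 5.02, 27.8 and 19.7 FPKM at day 30, against 142 and 50 FPKM at day 10 (-2.70, SE 0.60, adjusted p = 0.0337). Phenoloxidase-activating factor 2 (LOC409204), of the proteases that start melanin formation in insect blood, had 0.57, 0.87 and 0.90 FPKM, against 8.17 and 7.26 FPKM (-2.51, SE 0.64, adjusted p = 0.0436). Its day 20 replicates 1, 2 and 3 had 9.8, 0.48 and 0.49 FPKM, so it also varied this widely within 1 sampling time. Laccase-5 (LOC552811), of the copper oxidases, had 7.63, 30.4 and 25.1 FPKM, against 133 and 47.7 FPKM (-2.29, SE 0.48, adjusted p = 0.0313). None of these 3 lower genes was called after scaling.

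Some genes that passed after median-of-ratios scaling lie outside these lists; they are singled out here after their values were seen. Of the 60 such genes 58 were called as deposited and under all 3 scalings, 15 higher and 43 lower. The scalings were median-of-ratios, quantile normalization and centring on the median gene. JHBP-1, a take-out-like carrier protein, of a family that binds small lipophilic molecules in insects, had 183, 117 and 130.3 FPKM at day 30, against 456 and 464 FPKM at day 10 (-1.92, adjusted p = 0.0254 as deposited and 0.0134 scaled). LOC409602, annotated as circadian clock-controlled protein, had 22.0, 27.0 and 25.3 FPKM, against 94.2 and 79.7 FPKM (-1.99, adjusted p = 0.0103 and 0.0101). Lysosomal alpha-mannosidase (LOC552249), which trims sugar chains, had 21.9, 27.9 and 20.7 FPKM, against 52.7 and 56.6 FPKM (-1.41, adjusted p = 0.0103 and 0.0101). In these 3 genes the day 30 libraries lay close together, at less than a 2-fold range. On the higher side, protein unc-80 homolog (LOC726032), known as part of the sodium leak channel complex of neurons, had 36.4, 26.6 and 32.9 FPKM at day 30, against 10.8 and 18.9 FPKM at day 10 (0.88, adjusted p = 0.0254 and 0.0495). Crustacean hyperglycemic hormones (LOC724270), the annotation of a peptide hormone gene, had 15.9, 12.7 and 15.8 FPKM, against 5.07 and 7.80 FPKM (0.89, adjusted p = 0.0254 and 0.0495).

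Levels before exposure and at day 20 show where both days stand; these libraries share the fit, and no test of them is given. brp averaged 32.3 ± 2.97 FPKM before exposure, 11.3 ± 3.56 at day 10, 20.3 ± 1.33 at day 20 and 29.5 ± 4.91 at day 30 (SD, n = 2 at day 10 and 3 at the other times). Apime-ASTA averaged 25.8, 14.04, 23.9 and 26.4 FPKM in the same order of times. In both genes day 10 was the low time, and day 30 lay near the level before exposure. P450 4C1 (LOC413833) averaged 44.5, 57.5, 21.9 and 18.6 FPKM, and Mlp84B (LOC411285) averaged 16.6, 22.1, 9.31 and 10.2 FPKM. Both were lower at day 30 than before exposure in every library, and day 20 averaged close to day 30. Vg averaged 31.9, 56.4, 21.4 and 11.1 FPKM, with every day 30 library below every library before exposure. LOC411186 averaged 1.23, 15.6, 9.17 and 1.35 FPKM, high at day 10 and, more variably, at day 20.

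**Figure D5:**
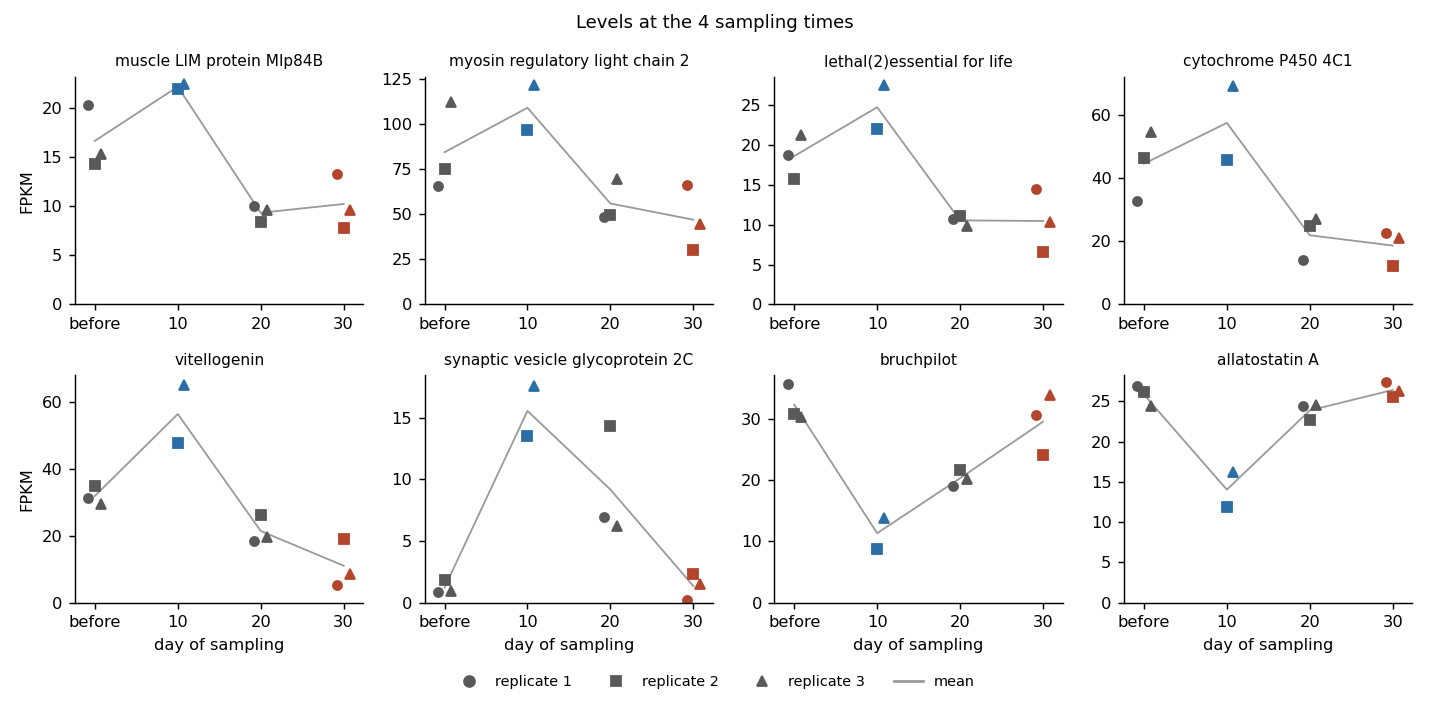
FPKM of 8 genes by sampling time, with a symbol per library and a line through the group means (3 libraries each, 2 at day 10). The muscle, P450 and heat shock genes of the upper row have their highest mean at day 10 and lower means at days 20 and 30, whereas brp and allatostatin A in the lower row are lowest at day 10.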

How the data were processed

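Brain RNA of the 11 labelled libraries was sequenced on an Illumina HiSeq 2500, per the labels' protocols. Per the submitters' processing notes, the tools named are fastp 0.18.0, HISAT2 2.1.0 and StringTie; the build, annotation and strand setting were not given in the sources used here. The authors deposited 1 table of FPKM per gene with 9974 rows; NCBI gene numbers of 9935 rows matched RefSeq, and 39 rows have a StringTie identifier. The table holds no counts, so sequencing depth is unknown and counting intervals cannot be computed. Summed FPKM was 279729 to 352568 at day 30, against 393632 and 468358 at day 10, and 7626 to 7944 genes reached 1 FPKM in each of the 11 libraries. Of 12 FPKM columns 1 could not be tied to a labelled sample and was not used, which leaves 2 libraries at day 10. No 2 libraries held more than 1.41% identical values.

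Values were analysed as log2(FPKM + 1), so fold changes of low genes are understated, after a filter at a mean FPKM of 1. One limma model (3.58.1, R 4.3.3, with mean-variance trend) of 4 group means over 11 libraries gave log2 differences, standard errors and Benjamini-Hochberg adjusted p-values over all 7830 genes, called under 0.05. Summaries used Python 3.11.15 and pandas 2.3.3. Adjusted p-values after scaling come from the same model on FPKM divided by median-of-ratios size factors. The royal jelly sum was tested with an exact permutation test. On simulated data with 200 changed genes the model recovered 71% of 2-fold changes with 8 false calls and 96.5% of 4-fold changes with 20 false calls. It called 0 genes in 5 simulations without change. The simulated noise was independent between genes, without shifts shared across a library. These figures therefore do not give the rate of false calls in the real libraries. Alternatives covered the filter, the pseudocount, 3 scalings, the replicate block, a gland and a mitochondrial covariate and leaving out each library. Named by rule were the 15 largest called differences in each direction that did not overlap and averaged at least 5 FPKM in the higher group, up to 4 called members (otherwise 2) of each of 34 lists, and defining markers; further list members were named after their values were seen. The comparison, the members and the lists were chosen with earlier results of these data known.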

Additional observations from a re-analysis of the deposited data

How the results depend on the processing

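The number of called genes depended on the setting. The direction of all 844 called genes was kept under median-of-ratios scaling and with the gland covariate. Leaving out a library could not change it, because the day 30 and day 10 libraries of these genes do not overlap. Median-of-ratios scaling gave 60 calls (15 higher and 45 lower, 46 of at least 2-fold), quantile normalization 150 (65 higher and 85 lower, 71 of at least 2-fold) and libraries centred on their median gene 88 (28 higher and 60 lower, 61 of at least 2-fold). With only the 5 libraries compared 15 were called (1 higher and 14 lower, 14 of at least 2-fold), with no filter on low values 501 (421 higher and 80 lower) and with no mean-variance trend 406 (338 higher and 68 lower). The gland level as covariate left 7 (0 higher and 7 lower, 7 of at least 2-fold) and the mitochondrial transcript level 32 (20 higher and 12 lower, 19 of at least 2-fold). Without each library in turn calls ranged from 0 to 1247, higher calls from 0 to 1183, lower calls from 0 to 189 and those of at least 2-fold from 0 to 427. Whether replicate numbers pair the libraries cannot be told. Deviations of same-numbered libraries correlated at -0.24 to 0.31 over 15 pairs, and those of differently numbered libraries at -0.31 to 0.24 over 30 pairs. Between day 10 and day 30, replicates 2 and 3 each correlated at 0.31 with their own number. The 2 day 10 libraries have mirrored deviations, so these 2 values are not independent. A replicate block gave 414 calls (348 higher and 66 lower). The cause of these shifts was not tested. A minimum of 5 FPKM gave 892 calls, and pseudocounts of 0.5 and 0.1 gave 838 and 820. The log2 difference of the royal jelly sum kept its direction in every alternative run on it, though leaving out a library could not reverse it, as the groups did not overlap. Of 142 named genes 20 changed sign in an alternative, none with a call there or as deposited. Depth is unknown, so how far low levels are limited by it cannot be given.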
